A study of Sesuvium portulacastrum with 18 samples.

Results

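Among shoot transcripts of Sesuvium portulacastrum, a succulent halophyte (a plant adapted to salty soils), 289 left their starting level in one direction after 8 h in NaCl and stood beyond it on the other side after 24 h. They were chosen by their measured levels: the highest group mean had to reach 5 normalized CPM (CPM, the share of a library's counts, divided by a scaling factor for each library), and the values of the 3 groups could not overlap. Class a held 210 transcripts, whose 8 h mean was at most 1/2 of the 0 h mean and whose 24 h mean was more than 1.5 times the 0 h mean. Class b held 79 transcripts, whose 8 h mean was at least 2 times the 0 h mean and whose 24 h mean was less than 2/3 of it. Both classes came from 20167 shoot transcripts that reached the level minimum, out of 99653 shoot transcripts and 197273 in shoot and root together. Because the choice used all 9 shoot libraries and both comparisons with 0 h, the levels below describe the members and carry no test.

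The plants were hydroponic seedlings raised from stem cuttings and aged 15 days. The 0 h group was harvested at once after a change to control medium, and the 8 h and 24 h groups were harvested that long after a change to medium with 250 mM NaCl, with 3 biological replicate libraries per time in each tissue. The photoperiod was 12 h. No unstressed plants accompany the 8 h and 24 h groups, so effects of salt and of elapsed time cannot be told apart at either time. At 8 h the hour of harvest cannot be told apart from them either. If all groups changed medium at the same hour, the 24 h and 0 h groups share the hour of harvest. The labels do not give that hour. Whether plants were pooled, and whether the cuttings were of 1 clone, is not given by the labels. The shoot libraries held 10050233 to 15068602 estimated counts.

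In salt stress physiology, an early osmotic effect of salt on water uptake is set apart from a slower ionic effect, as sodium and chloride build up in the leaves. Halophytes store much of these ions in the vacuole, where they serve as osmotic agents. Many plant transcripts also follow the daily cycle of light and the circadian clock, so a transcript can differ between hours of harvest without any stress. The deposited tables pair no transcript ID with a gene name, a function or a sequence. For that reason the members are described by ID, level and profile, no role is given to any of them, and the shoot label could not be checked against marker genes.

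Most transcripts that were displaced at 8 h stood near their 0 h level at 24 h, and the members were the minority that went past it. Of 2157 transcripts whose 8 h mean was at most 1/2 of the 0 h mean, without overlap of libraries, 1536 (71.2%) had a 24 h mean between 2/3 and 1.5 times the 0 h mean, and 392 (18.2%) were still below 2/3 of it. The 210 class a transcripts made up 9.74% of them. A further 19 were past the 1.5-fold limit at 24 h but had overlapping 24 h and 0 h libraries. Of 948 transcripts whose 8 h mean was at least 2 times the 0 h mean, 692 (73.0%) were back between 2/3 and 1.5 times, and 142 (15.0%) were still above 1.5 times. The 79 class b transcripts made up 8.33% of them, and 35 more were past the limit with overlapping libraries. The difference between the 2 shares was not tested. Since RNA came from whole shoots, fewer cells of a type and less RNA per cell cannot be told apart.

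**Figure D1:**
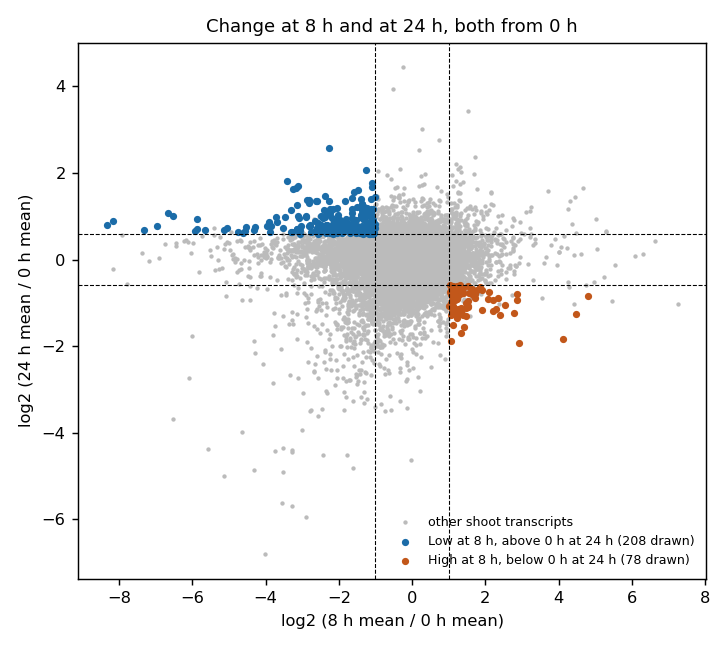
Log2 ratio of group means, 8 h over 0 h on the horizontal axis and 24 h over 0 h on the vertical axis, for shoot transcripts with a highest mean of at least 5 normalized CPM and no group mean of 0. Class a (blue) lies left of the 8 h limit and above the 24 h limit, class b (orange) lies right and below, and dashed lines mark the limits of 2 and 1.5 times.

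For most of class a the dip was deeper than the later excess. The rule favours this, since it asked for 2-fold at 8 h and only 1.5-fold at 24 h. The 8 h level was lower than 0 h by a median of 3.95-fold (quartiles 2.57 and 6.85), and the 24 h level was higher than 0 h by a median of 1.73-fold (quartiles 1.62 and 2.01). By size of the 8 h dip, 106 members were 2-fold to under 4-fold lower, 84 were 4-fold to under 16-fold lower and 18 were at least 16-fold lower. The other 2 had 0 counts in all 3 libraries at 8 h. The 24 h excess differed little along that scale, with medians of 1.71-fold, 1.77-fold and 1.65-fold in the 3 bins. Both ratios share the 0 h mean, so the bins are not independent of the excess. At 24 h 155 members stood under 2 times the 0 h mean, 53 from 2 to under 4 times and 2 at 4 times or more.

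Class b showed the opposite course, a peak and then a shortfall. The 8 h level was higher than 0 h by a median of 2.60-fold (quartiles 2.25 and 3.29), and the 24 h level was lower than 0 h by a median of 1.87-fold (quartiles 1.67 and 2.23). The peak was 2-fold to under 4-fold in 63 members, 4-fold to under 16-fold in 13 and at least 16-fold in 3. At 24 h 48 members were less than 2-fold below 0 h, 30 were 2-fold to under 4-fold below, and 1 had 0 counts in all 3 libraries. On the log2 scale, the 24 h departure amounted to a median of 44.3% of the 8 h departure in class a, over 208 members with a fold at both times, and 58.6% in class b, over 78. The 24 h departure was the larger one in 10 members of each class. These shares and counts depend on the limits of the rule, 2-fold at 8 h and 1.5-fold at 24 h. They are therefore not read as a trait of the response.

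**Figure D2:**
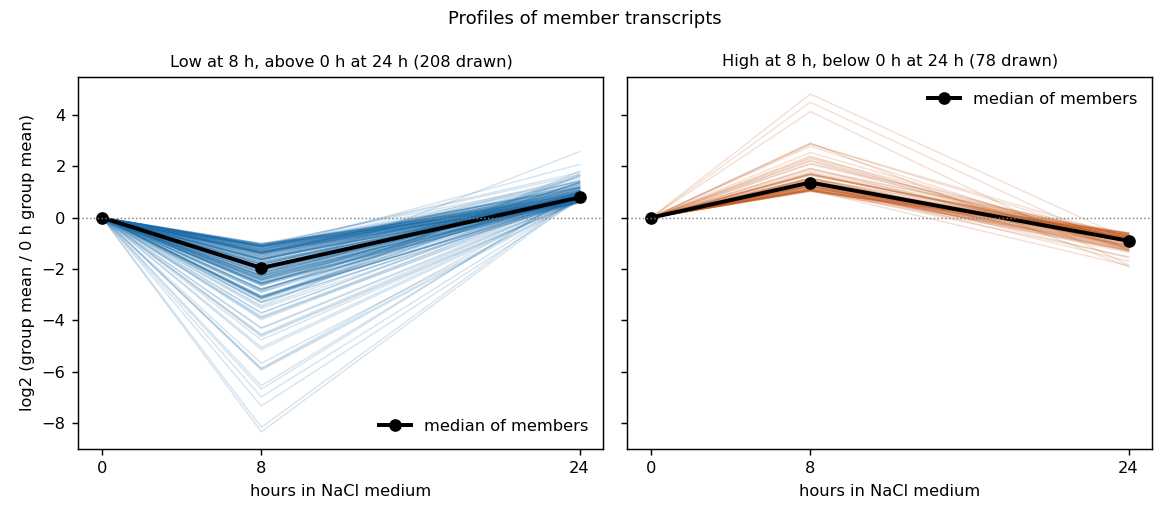
Log2 ratio of each group mean to the 0 h mean against hours in the NaCl medium, 1 line per member and a black line for the median of the members drawn. Class a dips at 8 h to as little as 1/322.2 of its 0 h level and ends above it, and class b peaks at up to 28.0 times its 0 h level and ends below it; 3 members with a group at 0 are not drawn.

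Members of both classes started at a lower median level than all transcripts at the level minimum. The rule favours this, since class a reaches that minimum through its 24 h group and class b through its 8 h group. In class a the 0 h means had a median of 10.4 normalized CPM (2.27 to 1112). Its medians were 2.11 (0 to 470.1) at 8 h and 18.5 (5.01 to 1811) at 24 h. The 20167 transcripts at or above the level minimum had medians of 15.9, 14.8 and 15.0 at 0 h, 8 h and 24 h. At 24 h 57 of the 210 lay between 5 and 10 normalized CPM and 35 reached 100. In 51 members the 8 h mean was under 1 normalized CPM. Class b members had medians of 7.77 at 0 h (0.647 to 297.3), 21.1 at 8 h (5.31 to 677.6) and 4.06 at 24 h (0 to 124.5). At 8 h 21 of the 79 lay between 5 and 10 and 12 reached 100.

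Compared with displaced transcripts that came back, class a was lower in starting level. Members had a median 0 h mean of 10.4 normalized CPM, against 25.2 for the 1536 transcripts that dipped and returned to between 2/3 and 1.5 times. Their median 8 h dip was 3.95-fold, against 3.11-fold in those 1536. In class b the median 0 h mean was 7.77, against 6.61 in the 692 that peaked and returned, with median peaks of 2.60-fold and 2.59-fold. These differences were not tested, since the rule drew on the same values. Through its raised 24 h group, class a can also reach the level minimum from a lower 0 h mean than the transcripts that dipped and returned.

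As sums, the classes held a small part of each library. The rule had set the order of times, without overlap, for every member, so the order of the sums follows from the choice. Class a took 0.922 ± 0.0949% of a library's counts at 0 h, 0.281 ± 0.0215% at 8 h and 1.75 ± 0.0805% at 24 h (mean ± SD, n = 3 each). Its 5 most abundant members held 37.2% of its summed 24 h level. Without them the shares were 0.623 ± 0.0586%, 0.178 ± 0.00765% and 1.096 ± 0.0580%, in the same order of times. Class b took 0.156 ± 0.00682% at 0 h, 0.600 ± 0.0144% at 8 h and 0.0817 ± 0.00555% at 24 h. The 5 most abundant held 45.1% of its summed 8 h level, and without them the shares were 0.0968 ± 0.00209%, 0.329 ± 0.0122% and 0.0534 ± 0.00237%.

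**Figure D3:**
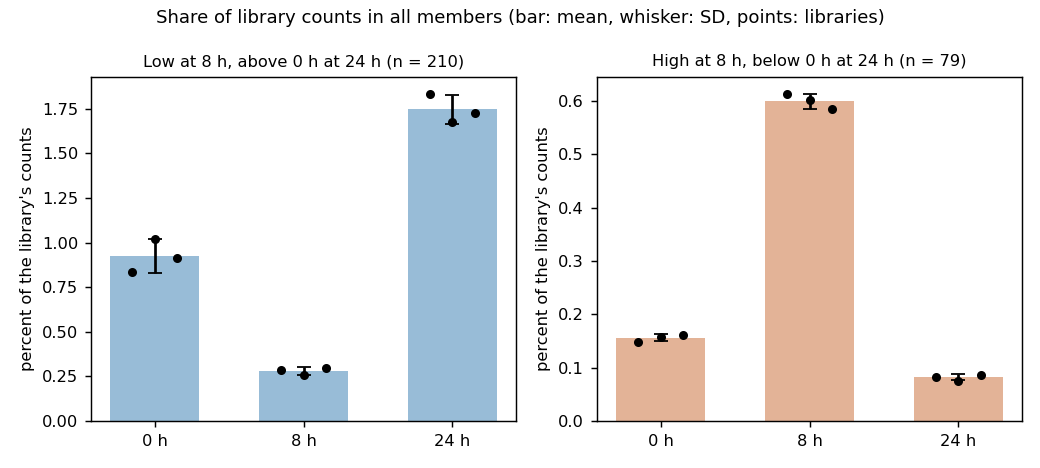
Percent of a library's estimated counts in all members of class a (left) and class b (right) at 0 h, 8 h and 24 h, with bars for the mean of 3 libraries, whiskers for the SD and points for libraries. Class a is lowest at 8 h and highest at 24 h, and class b is highest at 8 h and lowest at 24 h, with no overlap between times. The rule asked for this order in every member.

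The most abundant member was S_Transcript_59444.p1 of class a. It had 879, 1319 and 1139 normalized CPM at 0 h, 472, 396 and 543 at 8 h, and 1778, 1880.3 and 1776 at 24 h. The 0 h libraries were the most spread of its 3 groups, and 0 h replicate 1 lay nearest to the 8 h libraries. In the edgeR fit over all shoot transcripts its log2 fold change was -1.26 (SE 0.14) for 8 h against 0 h and 0.72 (SE 0.14) for 24 h against 0 h.

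S_Transcript_98877.p1 was second in level and had the largest late excess of class a. It had 197, 306 and 236 normalized CPM at 0 h, 51.6, 44.2 and 58.4 at 8 h, and 1590.4, 1494 and 1300.1 at 24 h. Every 24 h library was above 4 times every 0 h library. Its 24 h mean was 5.93 times its 0 h mean, with log2 fold changes of -2.28 (SE 0.16) at 8 h and 2.58 (SE 0.16) at 24 h, both against 0 h. The next largest excess, 4.19 times, belonged to S_Transcript_27142.p1 at a far lower level. That transcript had 5.31, 6.95 and 4.22 normalized CPM at 0 h, 1.37, 1.55 and 3.98 at 8 h, and 21.7, 23.7 and 23.7 at 24 h. Its 8 h replicate 3 came close to its lowest 0 h library, while its 24 h libraries were far from both.

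The widest swings among members with every group mean at or above 1 normalized CPM were near-complete losses followed by an excess. S_Transcript_11743.p1 had 83.7, 135 and 99.9 normalized CPM at 0 h, 1.37, 1.03 and 0.723 at 8 h, and 260, 201 and 214 at 24 h. S_Transcript_17295.p1 had 248, 256 and 248 at 0 h, 5.90, 3.69 and 2.75 at 8 h, and 387, 414 and 380 at 24 h. For these transcripts the log2 fold changes of 24 h against 8 h were 7.77 (SE 0.26) and 6.60 (SE 0.20). S_Transcript_47518.p1, named after its values were seen because its dip was the largest that gives a fold, averaged 257 ± 40.5 normalized CPM at 0 h, 0.797 ± 0.376 at 8 h and 449 ± 31.2 at 24 h (SD, n = 3 each). Its 8 h level was 322.2-fold below its 0 h level and rested on 17, 9 and 7 counts.

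In 2 class a members, also named after their values were seen, the 8 h libraries held 0 counts. S_Transcript_20868.p1 averaged 3.76 ± 1.505 normalized CPM at 0 h and 7.57 ± 0.651 at 24 h, and S_Transcript_99867.p1 averaged 2.87 ± 0.994 and 5.31 ± 0.527. A count of 0 allows up to 3 counts per library, or 0.218 normalized CPM on average at 8 h, for counting error only. Against that floor they were at least 17.3-fold and 13.2-fold lower at 8 h than at 0 h.

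In class b, S_Transcript_8033.p1 had the highest level. It had 255, 345 and 291 normalized CPM at 0 h, 703, 612 and 717 at 8 h, and 111, 111 and 151 at 24 h. Its 3 groups were well apart, with log2 fold changes of 1.17 (SE 0.14) at 8 h and -1.25 (SE 0.14) at 24 h, both against 0 h. S_Transcript_18023.p1 came next with a taller peak and a smaller shortfall. It had 102, 78.0 and 93.0 normalized CPM at 0 h, 699, 637 and 652 at 8 h, and 63.0, 42.9 and 52.3 at 24 h. Its log2 fold changes were 2.85 (SE 0.14) at 8 h and -0.77 (SE 0.13) at 24 h.

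The highest ratio of 8 h to 0 h in class b was that of S_Transcript_71757.p1, which also had the widest swing among class b members with every group mean at or above 1 normalized CPM. It had 11.3, 13.98 and 10.3 normalized CPM at 0 h, 344, 337 and 314 at 8 h, and 5.85, 6.85 and 7.19 at 24 h. The 8 h mean was 28.0 times the 0 h mean, and the 24 h mean was 0.559 of it. S_Transcript_36416.p1 had the next widest swing under that limit, with 32.1, 54.0 and 70.5 normalized CPM at 0 h, 334, 358 and 383 at 8 h, and 21.8, 22.9 and 22.2 at 24 h. Its 24 h libraries were close together, while its 0 h libraries differed by more than 2-fold.

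Under the same limit of 1 normalized CPM in every group mean, the largest late shortfalls of class b were in transcripts of low level. S_Transcript_13456.p1 had 6.21, 6.62 and 9.71 normalized CPM at 0 h, 10.2, 17.8 and 19.3 at 8 h, and 1.63, 1.91 and 2.62 at 24 h. Its 8 h replicate 1 lay just above its highest 0 h library. S_Transcript_112005.p1 had 13.1, 9.60 and 11.9 at 0 h, 25.8, 39.7 and 21.5 at 8 h, and 4.47, 1.82 and 4.37 at 24 h. The 24 h means of these transcripts were 0.273 and 0.308 of their 0 h means. Their log2 fold changes at 24 h against 0 h were -1.87 (SE 0.30) and -1.68 (SE 0.32).

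**Figure D4:**
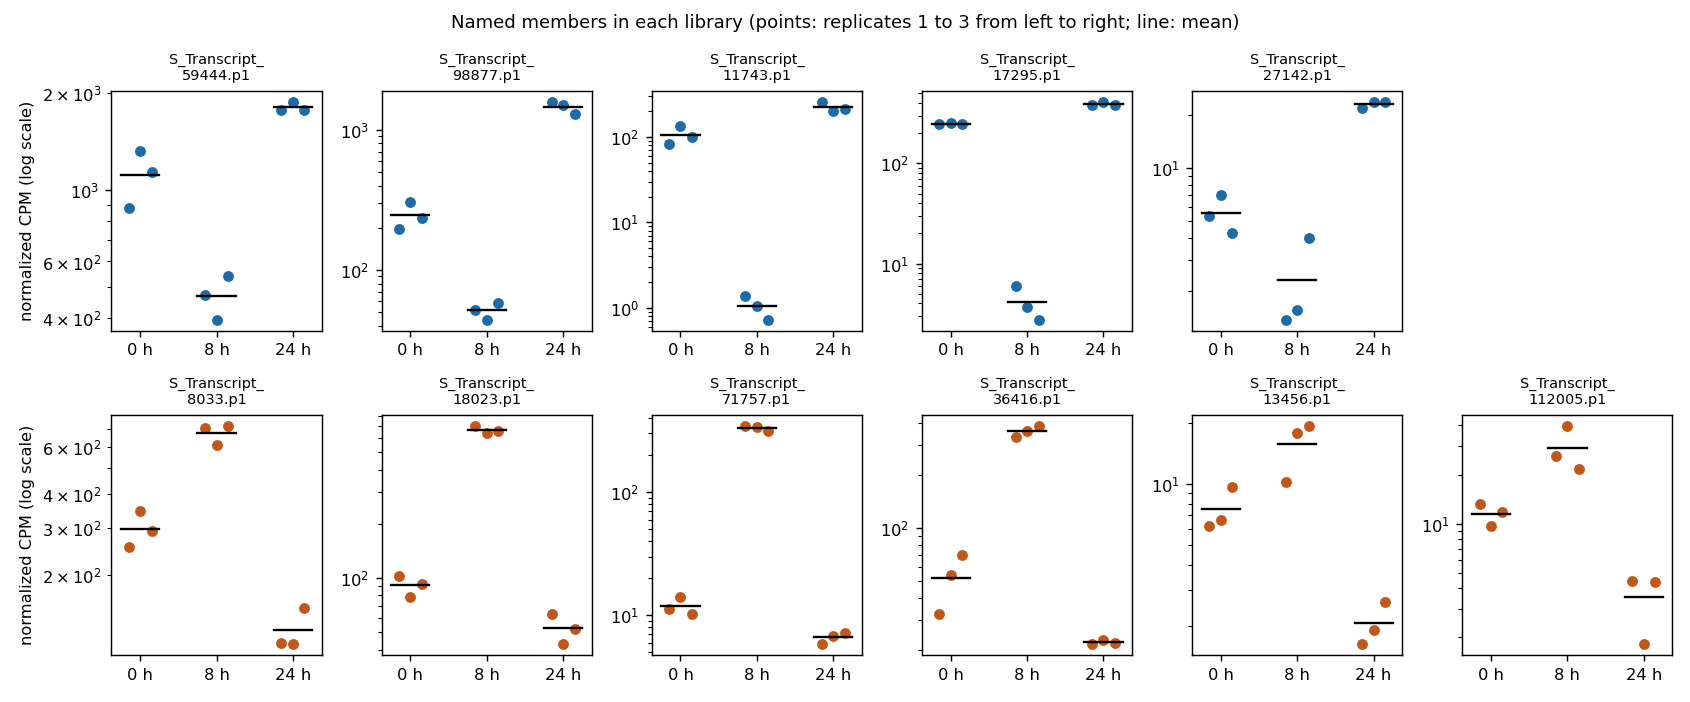
Normalized CPM (log axis) in each shoot library for the class a members (blue, top) and class b members (orange, bottom) named for level, swing or late departure, with replicates 1 to 3 from left to right and a line at the group mean. S_Transcript_98877.p1 stands at 1300.1 to 1590.4 at 24 h, and S_Transcript_71757.p1 at 314 to 344 at 8 h.

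The limits cut through a continuous range. Just inside class a, S_Transcript_25686.p2 averaged 92.0 ± 23.8, 43.7 ± 5.36 and 138 ± 19.5 normalized CPM at 0 h, 8 h and 24 h, and S_Transcript_178954.p1 averaged 5.07 ± 0.491, 2.01 ± 0.486 and 7.65 ± 1.03. Just outside it, S_Transcript_32362.p1 averaged 47.9 ± 2.54, 6.22 ± 0.934 and 71.7 ± 2.37, and S_Transcript_139335.p1 averaged 41.6 ± 8.67, 3.63 ± 0.402 and 62.2 ± 5.30 (SD, n = 3 each). Both outside transcripts missed the 24 h limit narrowly. Just inside class b, S_Transcript_313935.p1 averaged 11.4 ± 2.17, 23.2 ± 1.04 and 7.53 ± 0.222, and S_Transcript_257686.p1 averaged 10.4 ± 0.548, 25.6 ± 1.46 and 6.84 ± 0.577. Just outside it, S_Transcript_416135.p1 averaged 10.5 ± 0.620, 21.02 ± 6.67 and 6.18 ± 2.06, and S_Transcript_4577.p1 averaged 14.8 ± 2.35, 29.5 ± 2.77 and 9.47 ± 0.138, and both missed the 8 h limit.

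The separation between groups was wider at 8 h than at 24 h. The rule favours this order by its limits of 2-fold at 8 h and 1.5-fold at 24 h. In class a the lowest 0 h library lay above the highest 8 h library by a median of 2.58-fold, and by at least 1.5-fold in 179 of 210 members. The lowest 24 h library lay above the highest 0 h library by a median of 1.36-fold, by at least 1.5-fold in 51 members and by less than 1.1-fold in 19. In class b the lowest 8 h library lay above the highest 0 h library by a median of 2.04-fold, and by at least 1.5-fold in 72 of 79. The lowest 0 h library lay above the highest 24 h library by a median of 1.28-fold, by at least 1.5-fold in 16 and by less than 1.1-fold in 12.

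All 289 members passed the filter on low counts of the edgeR fit, which tested 40220 shoot transcripts. For 8 h against 0 h, 210 of 210 class a members were called lower by edgeR's quasi-likelihood test (Benjamini-Hochberg adjusted p under 0.05), where 15.1% of all tested transcripts were called lower. For 24 h against 0 h, 145 of 210 were called higher, where 2.77% of all were. In class b 78 of 79 were called higher at 8 h, where 10.6% of all were, and 53 of 79 were called lower at 24 h, where 4.29% of all were. Nothing is read from these counts, because the rule used the same comparisons, which also share the 0 h libraries. Without 24 h replicate 1, the 24 h counts were 94 of 210 and 34 of 79. Of all tested transcripts, 1.46% were then called higher and 2.43% lower. The counts fell in a like way without 24 h replicate 2 (103 and 40) or replicate 3 (98 and 37). In those fits 1.52% of all were called higher, and 2.70% and 2.74% lower.

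The rule was also applied to 8 libraries at a time, and the library left out was then read. Transcripts low at 8 h and high at 24 h in the other 8 libraries numbered 198 to 246. A left-out 8 h library lay below all 0 h libraries for 97.3% to 99.5% of them, against 37.4% to 40.1% of all transcripts at the level minimum. A left-out 24 h library lay above all 0 h libraries for 90.0% to 95.3%, against 25.9% to 29.9%. A left-out 0 h library lay between the 8 h and the 24 h libraries for 92.4% to 94.6%, against 9.85% to 11.1%. Transcripts chosen as class b on 8 libraries numbered 76 to 104. The left-out 8 h library lay above all 0 h libraries for 98.8% to 100%, against 32.7% to 34.2%. The left-out 24 h library lay below all 0 h libraries for 83.3% to 87.2%, against 32.0% to 37.0%, and the left-out 0 h library lay in between for 81.9% to 89.4%, against 8.23% to 10.3%. The library left out had still entered the authors' scaling, and these shares carry no test.

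**Figure D5:**
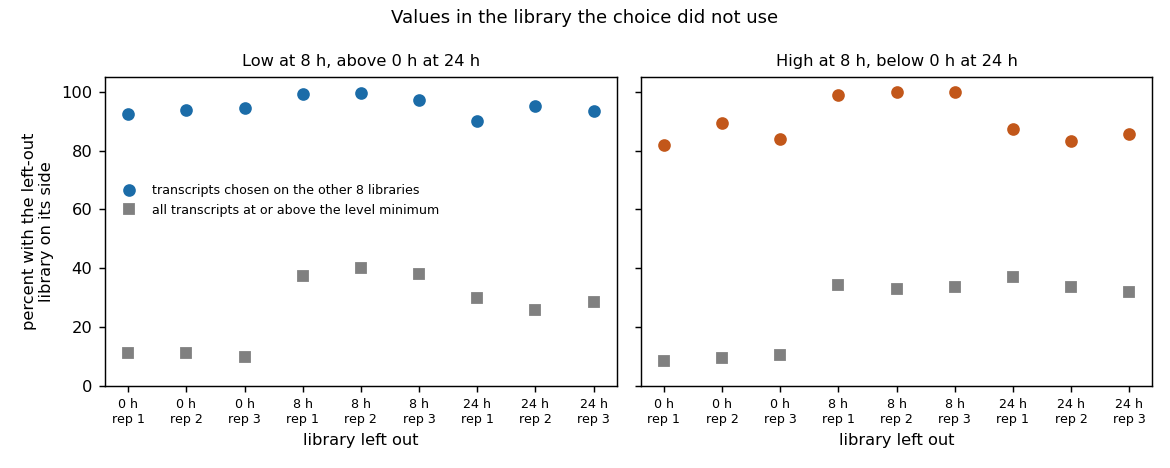
Percent of transcripts whose left-out library lay on the side its time has in the class, for each of the 9 shoot libraries left out in turn, for transcripts chosen on the other 8 libraries (circles) and all transcripts at or above 5 normalized CPM (squares). Circles lie at 90.0% to 99.5% for class a (left) and 81.9% to 100% for class b (right), and squares at 40.1% or less. Only for the circles did the rule set the other libraries apart.

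Replicate spread and single libraries moved with the classes in part. At 0 h the median coefficient of variation was 17.9% in class a and 19.1% in class b, against 12.8% in all transcripts at the level minimum. At 8 h it was 23.1%, 9.04% and 8.94% in that order of sets, and at 24 h 11.3%, 18.4% and 11.1%. The groups where a class is lowest rest on the fewest counts. At 0 h, which is the lowest group of neither class, the spread was also raised in both, and the reason was not tested. Among displaced transcripts that came back, the 0 h median was 13.3% in the 1536 that dipped and 17.4% in the 692 that peaked. The raised 0 h spread was thus not particular to class b. Among the 0 h libraries, replicate 1 was the highest for 15.7% of class a members, against 33.4% of all transcripts at the level minimum, and replicate 2 for 40.0%, against 20.99%. At 24 h replicate 1 was the highest for 44.3% of class a members, against 34.8%. In class b the shares against the same values were 32.9% and 16.5% for 0 h replicates 1 and 2, and 34.2% for 24 h replicate 1. The 8 h replicate 1 was the highest for 46.8% of class b members, against 38.0% of all transcripts at the level minimum. Without 0 h replicate 1, class a had 198 transcripts, of which 167 were among the 210. The part of single libraries in the classes was not tested.

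The balance of the classes moved with the scaling. With library size alone in place of the authors' factors, under which the median log2 fold change of 8 h against 0 h over all tested transcripts is 0.24 in place of near 0, class a had 169 transcripts and class b 129. Of these, 168 and 79 were among the members above. With DESeq2-type size factors the counts were 222 and 77.

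Outside the values that the rule used, the IDs themselves showed structure. Each ID has a transcript number and a suffix (p1, p2 and so on), and the files do not say how either was given. The suffix p1 was carried by 83.8% of class a and 93.7% of class b, against 92.1% of all transcripts at the level minimum. In class a, 6 members formed 3 pairs that share a number and differ in suffix, and 8 pairs had consecutive numbers. In class b, 0 members shared a number and 1 pair had consecutive numbers. Over 1886 pairs with consecutive numbers at the level minimum, the log2 change (pseudocount 0.5) of the 2 transcripts correlated at r = 0.675 for 8 h against 0 h and 0.586 for 24 h against 0 h. These points share libraries and scaling, and reads of near-identical transcripts can be divided between IDs, so such pairs are not separate genes for certain.

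Neighbours in number that are not members often moved in the same directions. Of 50 such neighbours of class a, 40 (80.0%) were lower at 8 h and higher at 24 h than at 0 h, against 21.4% of all transcripts at the level minimum. Of 10 such neighbours of class b, 5 were higher at 8 h and lower at 24 h, against 22.8%. With number differences of up to 3, a distance added after the data were seen, the shares were 73 of 108 (67.6%) in class a and 16 of 35 (45.7%) in class b. The consecutive pair of class a with the highest level was S_Transcript_59444.p1, described above, and S_Transcript_59443.p1. The second of these averaged 18.3 ± 6.68 normalized CPM at 0 h, 7.06 ± 2.54 at 8 h and 38.5 ± 6.10 at 24 h (SD, n = 3 each).

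The only consecutive pair of class b was S_Transcript_31162.p1 and S_Transcript_31163.p1. The first had 0.501, 1.57 and 0.963 normalized CPM at 0 h, 5.75, 5.68 and 5.93 at 8 h, and 0 counts in all 3 libraries at 24 h. Against a floor of 3 counts per library, 0.265 normalized CPM on average, it was at least 3.82-fold lower at 24 h than at 0 h. The second had 2.80, 3.14 and 2.52 at 0 h, 22.0, 20.95 and 20.5 at 8 h, and 0.813, 1.04 and 0.389 at 24 h. Both peaked at 8 h with little spread and were at or near 0 at 24 h.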

How the data were processed

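The authors deposited estimated counts per transcript, as whole numbers, and a second table of normalized signal. Per the submitters' processing notes, Trimmomatic, kallisto 0.45 and edgeR 3.40.1 were used, with no step named for each. How the transcripts were assembled is not stated there. The deposited signal equalled, to rounding, CPM from the counts divided by edgeR's TMM (trimmed mean of M values) factors of all transcripts with at least 1 count, and is called normalized CPM. All columns were matched to libraries (0 were left over). Members were found on this signal. Root transcripts carry other IDs and were not analysed here.

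The counts, already whole, were fitted with edgeR 4.0.16 in R 4.3.3 (TMM, filterByExpr with minimum count 10, quasi-likelihood test, 1 mean per time, two-sided, Benjamini-Hochberg over 40220 transcripts); the fit was tested on simulated data. DESeq2 1.42.0, other scalings, no filter, a replicate block and leaving out each library were alternatives. A standard error is the size of the log2 fold change over the square root of F. No pair of replicates was identical.

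Transcripts were named by a rule: per class, the 2 of highest level, of widest swing and of largest 24 h departure (lowest mean at least 1 for the last 2), the 2 nearest each side of the limits, and the longest run of numbers. The members and this rule were chosen with earlier results of these data known.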

Additional observations from a re-analysis of the deposited data

How the results depend on the processing

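Class sizes moved by 1.5 times or more mainly where a limit was changed, as such limits do by construction. Class a held 331 transcripts with a level minimum of 1, 55 with a 24 h limit of 2 times, 551 with any 24 h excess and 104 with an 8 h limit of 4 times. Class b held 31, 133 and 16 under the last 3 of these, and 129 with library size alone. With 1 library left out, class a held 198 to 246, of which 167 to 205 were among the 210. Class b then held 76 to 104, of which 64 to 77 were among the 79. Calls of class a members for 24 h against 0 h ran from 94 to 135 and of class b members from 34 to 48 with 1 library left out, lowest without 24 h replicate 1 in both. In those fits 1.46% to 2.26% of all tested transcripts were called higher and 2.43% to 3.72% lower. With the replicate number as a block (replicate block) these calls were 113 and 41, where 1.83% of all were called higher and 2.91% lower. Deviations from the group means showed no shared course in same-numbered libraries (0 of 9 pairs had a correlation over 0.1). With 3 libraries per group this cannot exclude a shared handling of same-numbered libraries, which the labels do not give. Fold changes of the named transcripts were compared under 14 alternative fits each: none changed sign, 586 kept their side of the threshold, 25 lost it and 5 gained it. Members near 5 normalized CPM, and dips to under 1, are limited by few counts.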
